A study of Homo sapiens with 9 samples.

Results

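HaCaT cells made to express wild-type FTO were compared with HaCaT cells that carried an empty vector, across all genes of the deposited count table. The 6 libraries compared, 3 labelled FTO and 3 labelled Vector, belong to a series of 9. The remaining 3, labelled mut-FTO, come from cells with an FTO variant whose demethylase activity is disrupted, and they entered the fit only to estimate the spread between libraries. HaCaT is a line of human skin keratinocytes that became immortal in culture, and every group was made in it. Poly(A) RNA was sequenced. The labels name no promoter for the constructs, no time after their delivery and no selection, and do not say whether a group was a single clone. Whether the 3 libraries of a group stem from different cultures is not said either. The p-values then cover only the spread among the libraries at hand, which may be technical. Columns of the table were matched to groups by their letter codes, and for FTO and mut-FTO nothing but these letters makes the match. If those columns were exchanged, the values given here for FTO would belong to mut-FTO. The table lists 21170 features. A count was present for 17167, and 13713 passed the filter for testing. All of these were in scope, with most room given to abundant genes and to families outside the keratinocyte, interferon and matrix programs.

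FTO is a dioxygenase that removes the methyl group from N6-methyladenosine, the most common internal mark of messenger RNA, and from related methylated adenosines. The mark is read by proteins that act on splicing, export, translation and decay, so a change of FTO can in principle touch transcripts of many unrelated pathways. Keratinocytes in culture devote much of their RNA to keratins, ribosomal proteins and enzymes of glycolysis. They also secrete growth factors, protease inhibitors, complement proteins and cytokines, which are raised or lowered in inflamed skin.

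The FTO libraries held 34920540 to 37846027 counts and the Vector libraries 33824317 to 34999460. Vector replicate 3 stood apart from the other 5 libraries compared. Mitochondrially encoded genes took 15% of its counts, against 3.8% to 4.32% in those 5, and assembled loci without a gene name took 2.5%, against 0.689% to 0.874%. Results are therefore also given without this library. Among the mut-FTO libraries, which bear on the spread in the fit, replicate 2 had a mitochondrial share of 7.45% and 3.17% in assembled loci, against 5.52% to 5.77% and 0.791% to 0.865% in the other two. Markers of keratinocytes were abundant in every library: the 16 summed to 26439 to 32726 CPM in Vector, where CPM is a gene's counts relative to the scaled library size, from edgeR's cpm function, and to 30196 to 31572 CPM in FTO. The 10 fibroblast markers summed to 7.81 to 13.7 CPM over the 6 libraries, and COL6A3 and THY1 had no count. The 7 melanocyte markers summed to at most 2.2 CPM and the 8 endothelial markers to at most 1.73 CPM, with TYR, DCT, PECAM1, TIE1, CLDN5 and EMCN at 0. The 14 leukocyte markers summed to 186 to 218 CPM in Vector and 108 to 116 CPM in FTO, a gap made mostly by CD74 and LCP1. PTPRC and TYROBP, which define leukocytes, had no count in any of the 6 libraries.

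The FTO transcript stood at 18.4, 17 and 25.8 CPM in Vector replicates 1, 2 and 3 and at 69.6, 77.1 and 62.6 CPM in the FTO libraries. The groups did not overlap, and Vector replicate 3 was the highest of its group. The rise was 3.42-fold (log2 1.77, SE 0.22; adjusted p = 0.00266 in edgeR's quasi-likelihood test, adjusted by Benjamini-Hochberg as is every adjusted p given here), and 3.88-fold without Vector replicate 3 (adjusted p = 1.27e-05). Counts do not separate the cells' own FTO transcript from the introduced one. 

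FN1, which encodes the matrix glycoprotein fibronectin, was at 220, 230 and 279 CPM in Vector and at 25.2, 39.1 and 26.9 CPM in FTO. IFI6, an interferon-induced gene, was at 326, 215 and 101 CPM in Vector and 21.4, 19.9 and 23.3 CPM in FTO. KRT1, a keratin of suprabasal cells, was at 2.63, 4.22 and 4.03 CPM in Vector and 21.2, 20.9 and 25.1 CPM in FTO. No group overlapped for any of these genes, but Vector replicate 3 carried the least IFI6 of its group, well below replicate 1. Leaving it out moved the fold of IFI6 from 9.92 to 12.8 lower, of FN1 from 8 to 7.53 lower and of KRT1 from 6.16 to 6.42 higher. RNASE2, a secreted ribonuclease, had no count in Vector and 1108 in the FTO libraries, which is at least 346-fold higher when the Vector group is set at 3 counts.

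At an adjusted p below 0.05, 102 of 13713 genes were called, which is 0.744%: 42 were higher in FTO (0.306%) and 60 lower (0.438%). In the same edgeR test 1631 genes (11.9%) had an unadjusted p below 0.05. DESeq2 called 364 (2.65%), 127 higher (0.926%) and 237 lower (1.73%). Without Vector replicate 3, edgeR called 476 of 13953 genes (3.41%), 161 higher (1.15%) and 315 lower (2.26%). With the mut-FTO libraries left out too, so that 3 FTO libraries met Vector replicates 1 and 2, it called 2095 of 13645 (15.4%), 1148 higher (8.41%) and 947 lower (6.94%).

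Leaving out Vector replicate 3 raised the number of called genes. Of the 102 called genes, all had the same direction without it, 101 were called again, and the fold of 3 moved by over 1.5 times (the chemokine gene CXCL9 and 2 loci without a gene name). The 102 were selected in a fit that included this library. Their direction could therefore hardly turn, and it does not tell how far the library sets the direction of other genes. The gene that lost its call was SERPINA3-1, an entry of the protease inhibitor gene SERPINA3, at 95.4, 217 and 303 CPM in Vector and 13.5 to 17.4 CPM in FTO (adjusted p = 0.0166, and 0.0997 without the library). Another 375 genes that were testable either way passed only without Vector replicate 3. For 302 of them this library lay on the FTO side of the mean of the other Vector libraries, and for 112 it lay past the FTO mean. These genes were selected by leaving that library out. It lay on the FTO side of the same Vector mean in 8541 of all 13713 tested genes and in 51 of the 102 called ones. In the 375 genes the median change grew from 0.63 to 0.73 on the log2 scale without this library. Their median SE shrank from 0.23 to 0.16. In 1 of the 375 genes the direction turned.

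**Figure D1:**
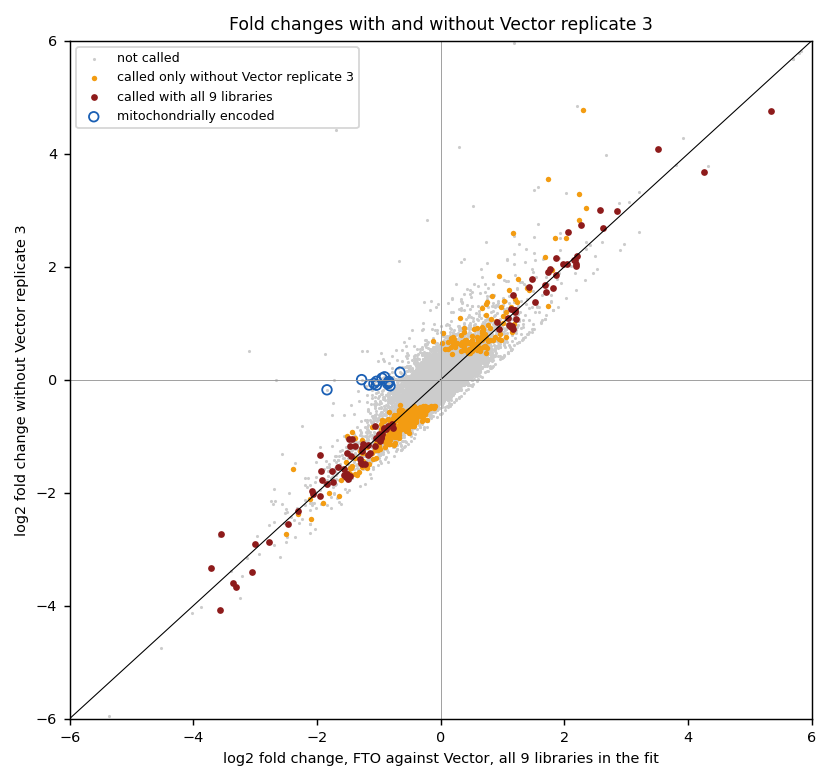
Log2 fold changes of FTO against Vector with all 9 libraries in the fit (x axis) and without Vector replicate 3 (y axis); each point is a gene, 13689 of the 13707 tested in both fits, with 18 beyond 6 on the log2 scale not drawn. The called genes lie near the diagonal, while the 13 mitochondrially encoded genes lie from −0.66 (MT-CYB) to −1.84 (MT-ND4L) on the x axis and near 0 on the y axis.

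The remaining libraries also bore on single calls. Of the 102 genes, 25 were called in every one of the 9 fits that left out 1 library. Setting aside the keratinocyte, interferon and matrix themes, unnamed loci, FTO, RNASE2 and a few further genes excluded by name (among them CCDC69, FABP4, LCP1, CD74 and MYO1G), 52 genes were called, 20 higher and 32 lower. Of these, 7 were called in all 9 such fits: C10orf99, IGFBP3, BMP7, CYBRD1, WFDC12, RTN4RL1 and SLCO2A1. For the others that are described, the libraries without which the call was lost are given with the range of the adjusted p.

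Among secreted signalling proteins, IGFBP3 and BMP7 rose, while STC1, MDK and SFRP1 fell. IGFBP3 binds insulin-like growth factors in the fluid around cells and stood at 487, 596 and 548 CPM in Vector and 1286, 1283 and 1192 CPM in FTO. Every FTO library lay far above every Vector library, and Vector replicate 3 lay between the other Vector libraries. The rise was 2.3-fold (log2 1.20, SE 0.16; edgeR adjusted p = 0.0033), and 2.28-fold without Vector replicate 3.

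C10orf99, a small secreted peptide of barrier epithelia also known as GPR15L, had the largest rise among called genes of at least 50 CPM. It was at 21.8, 27.8 and 29.7 CPM in Vector and at 105, 88.9 and 119 CPM in FTO, so the groups were far apart. The rise was 3.95-fold (log2 1.98, SE 0.18; edgeR adjusted p = 0.000326), and 4.15-fold without Vector replicate 3.

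BMP7, a bone morphogenetic protein, was at 15.6, 13.7 and 11.6 CPM in Vector and 32.9, 33 and 28.8 CPM in FTO, a rise of 2.31-fold (SE 0.17 on the log2 scale; edgeR adjusted p = 0.00561) that was 2.12-fold without Vector replicate 3. ID4, a helix-loop-helix inhibitor that BMP signals can induce, was at 5.55, 8 and 7.61 CPM in Vector and 16.9, 14 and 17.8 CPM in FTO (2.3-fold; edgeR adjusted p = 0.0239; 2.35-fold without Vector replicate 3). These were the called genes among 30 tested members of the BMP, activin and hedgehog list, beside 0.306% of all tested genes called higher. The list's median log2 change was 0.07. ID2, of the same inhibitor family, passed only without Vector replicate 3. In that fit the list had 3 members higher and 0 lower, beside 1.15% and 2.26% of all tested genes. ID2 was at 24.2 to 28.9 CPM in Vector and 43.1 to 51.6 CPM in FTO (edgeR adjusted p = 0.0527, and 0.0132 without the library). ID4 lost its call without any FTO library, Vector replicate 1 or 2 or mut-FTO replicate 3 (edgeR adjusted p = 0.0573 to 0.175).

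STC1, the glycoprotein hormone stanniocalcin 1, was at 148, 192 and 359 CPM in Vector and 78.6, 83.6 and 87.4 CPM in FTO. The highest library by a wide margin was Vector replicate 3. The fall was 2.8-fold (log2 −1.49, SE 0.27; edgeR adjusted p = 0.0273), and 2.08-fold without that library (log2 −1.05, SE 0.15; adjusted p = 0.000548). MDK, the heparin-binding growth factor midkine, was at 350, 312 and 291 CPM in Vector and 191, 177 and 191 CPM in FTO, a fall of 1.7-fold that was 1.81-fold without Vector replicate 3 (edgeR adjusted p = 0.0471 and 0.00119). SFRP1, a secreted antagonist of Wnt ligands, was at 10.1, 11.1 and 11 CPM in Vector and 3.75, 2.98 and 2.23 CPM in FTO, and fell 3.59-fold (edgeR adjusted p = 0.00722), or 3.6-fold without Vector replicate 3. The groups did not overlap for any of these genes, which for SFRP1 was a condition of its choice. Calls were lost without any FTO library or any mut-FTO library for STC1 (adjusted p = 0.0568 to 0.172), without FTO replicate 2 or 3 for SFRP1 (0.0624 to 0.0634), and without 7 libraries, all but Vector replicate 3 and mut-FTO replicate 2, for MDK (0.0603 to 0.262).

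The proteases that start the classical complement pathway fell together. C1R was at 331, 358 and 282 CPM in Vector and 162, 162 and 169 CPM in FTO. C1S, which C1R activates, was at 122, 147 and 103 CPM in Vector and 55.7, 54.7 and 57.4 CPM in FTO. For both genes Vector replicate 3 was the lowest of its group and still above every FTO library. C1R fell 1.97-fold (log2 −0.98, SE 0.16; edgeR adjusted p = 0.0163) and C1S 2.22-fold (log2 −1.15, SE 0.17; adjusted p = 0.00917), and without Vector replicate 3 the falls were 2.13-fold and 2.45-fold. Both lost their call without any FTO library, and C1R also without Vector replicate 2 (edgeR adjusted p = 0.0776 to 0.129 for C1R and 0.0676 to 0.0866 for C1S). C3, the central component on which these pathways converge, was at 498, 596 and 513 CPM in Vector and 336, 388 and 333 CPM in FTO and passed only without Vector replicate 3 (log2 −0.60, adjusted p = 0.201; −0.66 and 0.0225 without it).

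WFDC12 and WFDC5, secreted proteins with the whey acidic protein fold of protease inhibitors, both rose. WFDC12 was at 1.05, 0.671 and 0.902 CPM in Vector and 3.29, 3.43 and 4.09 CPM in FTO (4.11-fold; edgeR adjusted p = 0.0033). WFDC5 was at 6.55, 6.74 and 8.71 CPM in Vector and 15.2, 17.6 and 15.2 CPM in FTO (2.18-fold; edgeR adjusted p = 0.0121), and was no longer called without Vector replicate 2 or any FTO library (0.0743 to 0.101). Vector replicate 3 was within or near its group for these genes, and their folds were 4.11 and 2.37 without it. CHI3L2, a chitinase-like secreted protein, was at 19, 24.6 and 11.4 CPM in Vector and 40, 39.1 and 45 CPM in FTO. Here Vector replicate 3 was the lowest library, and the rise went from 2.25-fold to 1.87-fold without it (edgeR adjusted p = 0.0401 and 0.00143). It lost its call without any FTO library, Vector replicate 1 or any mut-FTO library (0.0667 to 0.228).

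**Figure D2:**
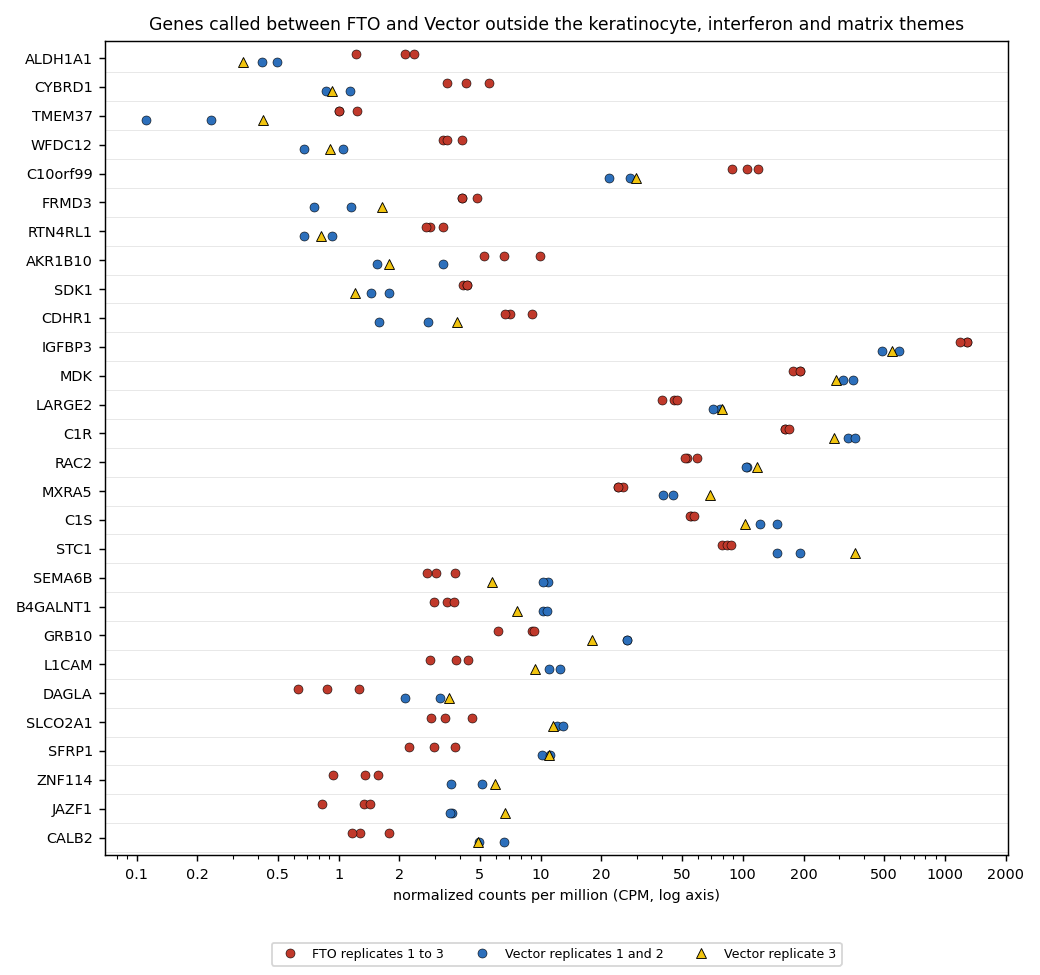
CPM (x axis, log scale) of called genes outside the keratinocyte, interferon and matrix themes, ordered by log2 fold change; each point is a library. FTO points and Vector points do not overlap in any row, which was a condition for the genes taken as largest rises and falls. Across all tested genes 21% did not overlap. The triangle of Vector replicate 3 is the nearest Vector library to FTO in rows such as SEMA6B and CDHR1 and the farthest in STC1 and MXRA5.

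The plot of called genes by library also shows enzymes, transporters and surface proteins, most of them of low level. Among enzymes, ALDH1A1, which makes retinoic acid from retinaldehyde, was at 0.497, 0.419 and 0.338 CPM in Vector and 1.22, 2.12 and 2.37 CPM in FTO, from 44 counts in the Vector group and 208 in the FTO group. It rose 4.53-fold (log2 2.18, SE 0.35; edgeR adjusted p = 0.0121), or 4.07-fold without Vector replicate 3. ALDH1A1 was the called member of 13 tested aldehyde dehydrogenases, beside 0.306% of all tested genes called higher. AKR1B10, an aldo-keto reductase that reduces aldehydes and retinal, was at 1.55, 3.3 and 1.78 CPM in Vector and 6.59, 5.26 and 9.87 CPM in FTO (3.27-fold; edgeR adjusted p = 0.0264; 2.93-fold without Vector replicate 3). The Vector and FTO libraries did not overlap for either gene, which was a condition of their choice. ALDH1A1 lost its call without FTO replicate 2 or 3 or Vector replicate 2 (0.0599 to 0.0864), and AKR1B10 without FTO replicate 1 or 3, Vector replicate 1 or any mut-FTO library (0.0581 to 0.171).

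CYBRD1, a ferric reductase, was at 1.14, 0.867 and 0.931 CPM in Vector and 3.45, 5.53 and 4.29 CPM in FTO, a rise of 4.51-fold (SE 0.30 on the log2 scale; edgeR adjusted p = 0.00466) that was 4.33-fold without Vector replicate 3. CKB, the brain-type creatine kinase, was at 12.9, 10.6 and 7.59 CPM in Vector and 23.6, 20.9 and 24.6 CPM in FTO, and its rise went from 2.22-fold to 1.93-fold without Vector replicate 3 (edgeR adjusted p = 0.0191 and 0.00135). Both genes separated the groups in every library, which for CYBRD1 was a condition of its choice. CKB lost its call without any FTO library, Vector replicate 2 or mut-FTO replicate 2 (adjusted p = 0.0502 to 0.138).

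SLCO2A1, the transporter that carries prostaglandins into cells, was at 12, 12.9 and 11.5 CPM in Vector and 2.87, 4.59 and 3.35 CPM in FTO. The 3 Vector libraries lay close together and the fall was 3.37-fold (log2 −1.75, SE 0.23; edgeR adjusted p = 0.0033), and 3.51-fold without Vector replicate 3. B4GALNT1, which makes the gangliosides GM2 and GD2, was at 10.3, 10.8 and 7.61 CPM in Vector and 2.95, 3.43 and 3.72 CPM in FTO (2.85-fold lower; edgeR adjusted p = 0.0251; 3.19-fold without Vector replicate 3). DAGLA, a diacylglycerol lipase that makes the endocannabinoid 2-arachidonoylglycerol, fell 3.17-fold to 0.922 CPM and LARGE2, a glycosyltransferase of dystroglycan, 1.72-fold to 44.2 CPM (edgeR adjusted p = 0.0474 for each). Their falls were 2.9-fold and 1.72-fold without Vector replicate 3. B4GALNT1 lost its call without any FTO library, Vector replicate 1 or 2 or mut-FTO replicate 2 (0.0502 to 0.172). LARGE2 kept it only without Vector replicate 3 or mut-FTO replicate 2 (0.0603 to 0.258 in the others), and DAGLA only without Vector replicate 3 (0.0644 to 0.244).

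Among adhesion and guidance molecules, L1CAM and SEMA6B fell, and RTN4RL1, SDK1 and CDHR1 rose. L1CAM, an adhesion molecule of the immunoglobulin superfamily, was at 11, 12.4 and 9.39 CPM in Vector and 3.83, 2.84 and 4.38 CPM in FTO (2.97-fold; edgeR adjusted p = 0.0185; 3.23-fold without Vector replicate 3). SEMA6B, a transmembrane semaphorin, was at 10.9, 10.3 and 5.72 CPM in Vector and 3.03, 2.74 and 3.75 CPM in FTO (2.83-fold; edgeR adjusted p = 0.0352). In SEMA6B Vector replicate 3 lay about midway, and the fall was 3.39-fold without it. SEMA6B lost its call in every left-out fit except that without Vector replicate 3 (0.0505 to 0.208), and L1CAM without Vector replicate 2 or any FTO library (0.0722 to 0.13).

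RTN4RL1, a receptor of the Nogo receptor family, was at 0.672, 0.923 and 0.818 CPM in Vector and 2.84, 3.27 and 2.72 CPM in FTO (3.65-fold; edgeR adjusted p = 0.00656; 3.62-fold without Vector replicate 3). SDK1, an adhesion molecule known from synapses, rose 2.87-fold to 4.26 CPM and CDHR1, a cadherin-related protein of photoreceptors, 2.78-fold to 7.59 CPM (edgeR adjusted p = 0.0108 and 0.0434). Vector replicate 3 was the highest Vector library for CDHR1, at 3.84 CPM against 1.58 and 2.77, and the rise was 3.43-fold without it. The rise of SDK1 was 2.59-fold without it. SDK1 was no longer called without Vector replicate 2 or any FTO library (0.0525 to 0.0722), and CDHR1 in every left-out fit except that without Vector replicate 3 (0.064 to 0.231).

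RAC2, a small GTPase best known from blood cells, was at 105, 104 and 118 CPM in Vector and 59.5, 52.8 and 51.8 CPM in FTO. It fell 2-fold (SE 0.17 on the log2 scale; edgeR adjusted p = 0.0163), 1.95-fold without Vector replicate 3, and was no longer called without Vector replicate 2 or any FTO library (0.0525 to 0.126). Of the 14 leukocyte markers given above, LCP1 and CD74 were lower in FTO as well. CD14 (10.6 to 15.5 CPM in Vector, 15.3 to 17.4 CPM in FTO) and CD68 (51.5 to 79 and 50.4 to 56.7 CPM) overlapped between groups, and the remaining 10 were each below 1 CPM, with PTPRC and TYROBP at 0. In bulk RNA, fewer cells of a kind and less RNA per cell cannot be told apart. GRB10, an adaptor that binds the insulin receptor, was at 26.6, 26.8 and 17.9 CPM in Vector and 6.16, 9.04 and 9.27 CPM in FTO, and its fall went from 2.92-fold to 3.33-fold without Vector replicate 3 (edgeR adjusted p = 0.0259 and 0.000437). The lowest Vector library, replicate 3, was still apart from FTO, as the rule that chose this gene required. GRB10 lost its call without any FTO library, Vector replicate 1 or 2 or mut-FTO replicate 2 (0.0514 to 0.172).

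Calretinin and calbindin, related calcium-binding proteins encoded by CALB2 and CALB1, both fell. CALB2 was at 6.6, 4.98 and 4.88 CPM in Vector and 1.28, 1.77 and 1.17 CPM in FTO (3.89-fold; edgeR adjusted p = 0.0236; 4.18-fold without Vector replicate 3). CALB1 fell 2.69-fold to 5.7 CPM, a value that moved to 2.07-fold without Vector replicate 3 (edgeR adjusted p = 0.0474 and 0.0191). Calls were lost for CALB2 without Vector replicate 1 or 2 or any FTO library (0.0614 to 0.171), and for CALB1 without 7 libraries, all but Vector replicates 1 and 3 (0.0797 to 0.262).

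Among regulators of transcription and the cell cycle, FOXQ1, a forkhead factor, was at 8.3, 9.26 and 5.67 CPM in Vector and 17.6, 17 and 16.3 CPM in FTO (2.19-fold; edgeR adjusted p = 0.0225, and 1.9-fold without Vector replicate 3). JAZF1, a zinc-finger transcriptional regulator, fell 3.85-fold to 1.2 CPM (edgeR adjusted p = 0.0238), and 3.06-fold without Vector replicate 3, its highest library at 6.63 CPM against 3.65 and 3.55. ULK2, a kinase that starts autophagy, was at 8.88, 10 and 10.3 CPM in Vector and 4.81, 4.1 and 3.95 CPM in FTO, and fell 2.27-fold (edgeR adjusted p = 0.0273), or 2.24-fold without Vector replicate 3. It was the called member of 33 tested autophagy genes, beside 0.438% of all tested genes called lower. The median log2 change of these 33 was 0.04. CCND2, a D-type cyclin, fell 1.93-fold to 16.1 CPM (edgeR adjusted p = 0.0443), or 1.94-fold without Vector replicate 3. CCND1, its relative, was at 149, 164 and 157 CPM in Vector and 93.1, 102 and 102 CPM in FTO, and passed only without Vector replicate 3 (1.58-fold lower, adjusted p = 0.0535; 1.61-fold and 0.00301 without it). FOXQ1, JAZF1, ULK2 and CCND2 lost their call without any FTO library. FOXQ1 lost it also without mut-FTO replicate 2 or 3 (adjusted p = 0.0505 to 0.135), JAZF1 without mut-FTO replicate 2 (0.0519 to 0.144), ULK2 without Vector replicate 2 or mut-FTO replicate 3 (0.0635 to 0.175), and CCND2 without Vector replicate 1 or 2 or mut-FTO replicate 1 or 3 (0.0669 to 0.257).

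Of 409 tested ZNF zinc-finger genes, a family dominated by KRAB repressors of transposable elements, 1 was called lower, beside 0.438% of all tested genes. This gene was ZNF114. It was at 3.62, 5.12 and 5.92 CPM in Vector and 1.35, 0.939 and 1.57 CPM in FTO (3.79-fold lower; edgeR adjusted p = 0.0349; 3.44-fold without Vector replicate 3), and lost its call without any FTO library, Vector replicate 2 or mut-FTO replicate 2 (0.0706 to 0.195). The family's median log2 change was −0.1 with all libraries and 0.03 without Vector replicate 3. In that fit 7 of 414 members were lower and 0 higher, a share below the 2.26% of all tested genes that were lower. Its members were higher in Vector replicate 3 than in the other Vector libraries by a median of 0.3 on the log2 scale.

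The interferon-induced genes and chemokines are described here only by their promoters, with the letters of known motifs found there. The 250 bases before the RefSeq start (GRCh38.p14) were available for 24 of 42 higher and 29 of 60 lower genes and were searched on both strands for 6 motifs. The core of the interferon-stimulated response element, which is GAAA, any 2 bases and GAAA again, lay in 6 of 29 promoters of lower genes (20.7%) and 0 of 24 of higher genes. Among all tested genes with a promoter it lay in 2.35%, and in 3.07% of all 27305 promoters. The AP-1 motif TGANTCA lay in 4 of 24 promoters of higher genes (16.7%) and 0 of 29 of lower genes, against 4.09% of those of tested genes and 6.6% of all promoters. The lower genes with the first motif were IFI6, IFI27, OAS3, BST2, CXCL9 and IL24, and the higher genes with the AP-1 motif were CXCL8, ATP10B, NHLH2 and SPRR2A. Of the other motifs, TATAAA lay in 7 of 24 promoters of higher and 3 of 29 of lower genes (5.68% of tested genes, 11.1% of all promoters) and CCAAT in 9 and 12 (35.2% and 33%). The ETS core CCGGAAG lay in 0 of each (16% and 8.82%), and the cyclic AMP response element, TGAC followed by GTCA, in 0 and 1 (2.94% and 1.77%). Among genes called without Vector replicate 3, 111 higher and 226 lower with a promoter, the first motif lay in 1.8% of higher and 7.08% of lower genes and the AP-1 motif in 11.7% and 3.98%. There the ETS core lay in 13.5% and 5.31%, TATAAA in 14.4% and 6.19%, CCAAT in 32.4% and 35.4% and the cyclic AMP element in 0.901% and 1.77%, so the absence of AP-1 from lower genes and of the ETS core from both did not hold in this fit. A match is a run of letters, not a shown site, the start used in HaCaT cells may differ, and binding was not measured. The 3 promoters of lower genes and 3 of higher genes that follow show where the motifs lie, each 5′ to 3′ on the gene's strand, with matches on either strand in capitals.
IFI6 promoter, chr1:27672193-27672442, minus strand: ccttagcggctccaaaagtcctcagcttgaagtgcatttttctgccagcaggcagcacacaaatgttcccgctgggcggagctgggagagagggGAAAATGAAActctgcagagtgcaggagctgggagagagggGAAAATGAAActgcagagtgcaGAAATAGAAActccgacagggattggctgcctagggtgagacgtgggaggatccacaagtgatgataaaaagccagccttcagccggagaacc
BST2 promoter, chr19:17405631-17405880, minus strand: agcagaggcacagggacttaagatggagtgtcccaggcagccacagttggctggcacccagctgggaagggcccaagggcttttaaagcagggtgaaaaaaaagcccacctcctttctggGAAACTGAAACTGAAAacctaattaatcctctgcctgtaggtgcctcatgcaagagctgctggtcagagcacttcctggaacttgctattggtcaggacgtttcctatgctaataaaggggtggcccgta
IL24 promoter, chr1:206897193-206897442, plus strand: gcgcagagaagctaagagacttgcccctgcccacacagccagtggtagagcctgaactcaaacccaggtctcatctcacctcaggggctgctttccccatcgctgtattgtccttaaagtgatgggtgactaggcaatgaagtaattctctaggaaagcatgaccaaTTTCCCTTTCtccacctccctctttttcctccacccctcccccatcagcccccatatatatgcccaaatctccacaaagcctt
CXCL8 promoter, chr4:73740319-73740568, plus strand: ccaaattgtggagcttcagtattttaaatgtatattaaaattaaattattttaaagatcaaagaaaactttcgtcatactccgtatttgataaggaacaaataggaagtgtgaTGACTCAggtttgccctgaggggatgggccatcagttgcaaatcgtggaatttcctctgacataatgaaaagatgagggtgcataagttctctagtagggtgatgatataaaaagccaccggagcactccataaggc
ATP10B promoter, chr5:160852212-160852461, minus strand: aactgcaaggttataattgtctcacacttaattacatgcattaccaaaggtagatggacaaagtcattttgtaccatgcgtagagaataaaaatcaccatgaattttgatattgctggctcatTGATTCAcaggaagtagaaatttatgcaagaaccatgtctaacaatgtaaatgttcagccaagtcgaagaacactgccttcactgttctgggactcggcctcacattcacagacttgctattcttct
NHLH2 promoter, chr1:115841127-115841376, minus strand: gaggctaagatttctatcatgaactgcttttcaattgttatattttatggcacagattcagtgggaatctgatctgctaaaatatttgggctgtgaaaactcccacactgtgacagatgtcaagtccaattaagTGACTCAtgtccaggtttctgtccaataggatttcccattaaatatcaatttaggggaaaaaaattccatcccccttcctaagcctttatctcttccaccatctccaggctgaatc

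IFI6 held 3 matches and BST2 2 that overlap, while in IL24 the match lay on the opposite strand. BST2, a membrane protein that tethers viruses, was at 19.2, 11.9 and 9 CPM in Vector and 2.02, 0.724 and 1.14 CPM in FTO, and IL24, an IL-10 family cytokine, was at 50.3, 48.7 and 43.1 CPM in Vector and 17, 18.5 and 21.6 CPM in FTO. Neither gene's groups overlapped. CXCL8, the neutrophil chemokine interleukin 8, was at 222, 246 and 252 CPM in Vector and 480, 517 and 522 CPM in FTO. ATP10B, a P4-type ATPase that moves lipids across membranes, was at 7.04, 15.4 and 17.2 CPM in Vector and 33.2, 38.1 and 34.9 CPM in FTO, and NHLH2, a helix-loop-helix factor, was at 5.41, 4.5 and 3.75 CPM in Vector and 11.3, 8.69 and 9.33 CPM in FTO. The FTO libraries were the higher ones in each. BST2 fell 10.3-fold and IL24 2.49-fold, or 12.1-fold and 2.64-fold without Vector replicate 3, and CXCL8 rose 2.11-fold, or 2.13-fold without it. ATP10B rose 2.68-fold and NHLH2 2.15-fold (edgeR adjusted p = 0.0276 and 0.0304), or 3.11-fold and 1.94-fold without it, and both lost their call without 7 libraries, all but Vector replicates 1 and 3 (0.0655 to 0.156 and 0.0568 to 0.204).

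Few of the most abundant transcripts were called, as was so for all tested genes. Of 1797 genes with a mean of at least 100 CPM, 3 were higher (IGFBP3, CXCL8 and the keratin gene KRT13) and 7 lower. Over all tested genes the shares were 0.306% and 0.438%. Of the 110 genes of at least 1000 CPM 0 were called by edgeR, beside 0.744% of all tested genes. KRT13 rose 2.17-fold, or 1.93-fold without Vector replicate 3. It lost its call without any FTO library (adjusted p = 0.0553 to 0.0982), and CXCL8 without any FTO library, Vector replicate 1 or 2 or mut-FTO replicate 3 (0.0871 to 0.228). Without Vector replicate 3, 35 of the 1797 were higher and 55 lower, beside 1.15% and 2.26% of all tested genes. Of the 110 genes of at least 1000 CPM, 5 were called in that fit, beside 3.41% of all tested genes. Ranked by CPM, which counts reads and is not corrected for length, the 12 leading genes were CTSB, EEF1A1, FTH1, GAPDH, PKM, ACTB, ENO1 and the mitochondrial MT-CO1, MT-CO2, MT-CO3, MT-ND4 and MT-ATP6.

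EEF1A1, which delivers aminoacyl-tRNA to the ribosome, had the largest difference among the nuclear genes of these 12. It was at 10180, 9701 and 7159 CPM in Vector and 15104, 14162 and 15716 CPM in FTO. The lowest library was Vector replicate 3, and every FTO library was above every Vector library. The log2 difference was 0.73 (SE 0.18; edgeR adjusted p = 0.113), and 0.57 (SE 0.13; adjusted p = 0.0183) without Vector replicate 3, so the smaller difference was the one that passed.

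The other nuclear genes among the 12 passed in neither fit. GAPDH, an enzyme of glycolysis, was at 8070, 7029 and 6311 CPM in Vector and 9027, 8126 and 8673 CPM in FTO (log2 0.27, edgeR adjusted p = 0.568). ACTB, encoding cytoplasmic actin, was at 8705, 7662 and 8734 CPM in Vector and 6845, 7218 and 6492 CPM in FTO (log2 −0.29, adjusted p = 0.51). Neither gene's groups overlapped, as was so for 21% of all tested genes. FTH1, the heavy chain of the iron store ferritin, and PKM, pyruvate kinase, overlapped between groups, with log2 changes of 0.12 and −0.094. ENO1, an enolase of glycolysis, was at 5960 and 5502 CPM in Vector replicates 1 and 2, at 3138 in replicate 3, and at 6019 to 6470 CPM in FTO. Its log2 change of 0.35 became 0.093 without Vector replicate 3. CTSB, the lysosomal protease cathepsin B, went from 0.32 to 0.15 in the same way.

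**Figure D3:**
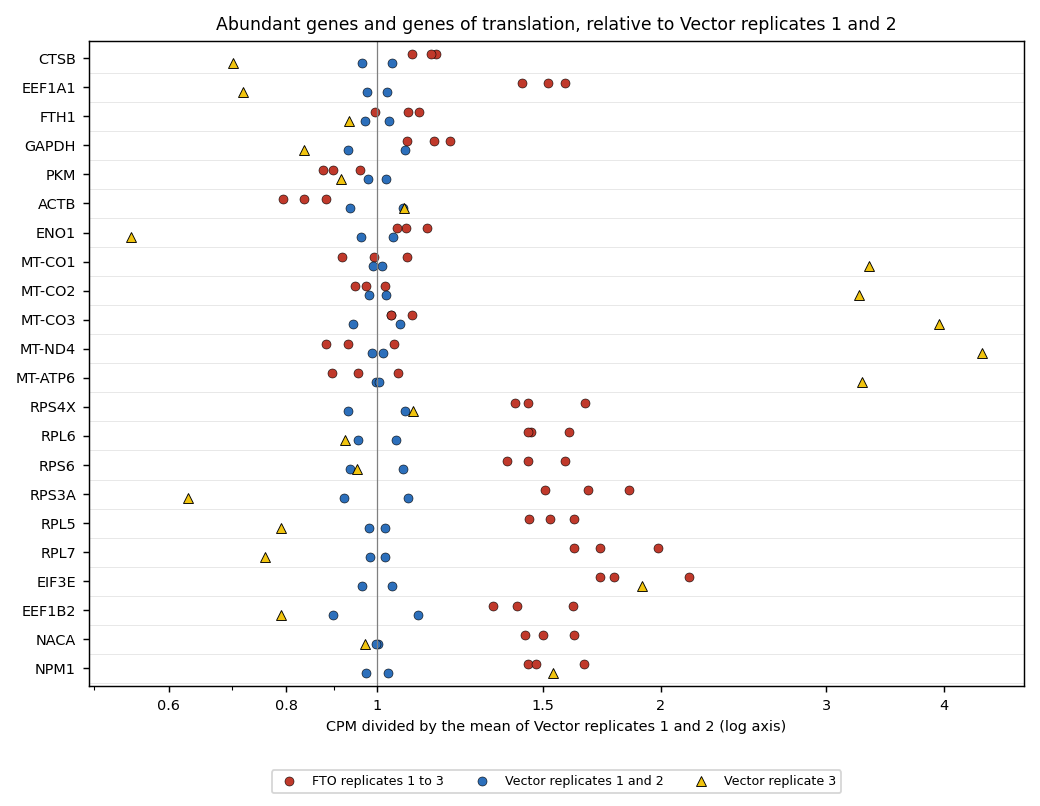
CPM of the 12 leading genes and of 10 genes of translation, each divided by the mean of Vector replicates 1 and 2 (x axis, log scale); each point is a library. The FTO points of EEF1A1 and of the 10 genes of translation lie to the right of 1. These 10 were chosen among genes called higher without Vector replicate 3, so their place follows from the choice. Vector replicate 3 lies alone at over 3 for the 5 mitochondrial genes.

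In that plot of abundant genes the mitochondrially encoded genes differ from the rest by Vector replicate 3 alone. The 13 genes, which encode subunits of the respiratory chain, summed to 41132, 39965 and 147750 CPM in Vector and 39975, 42867 and 38013 CPM in FTO. Vector replicates 1 and 2 lay within the range of the FTO libraries. The median log2 change was −0.95 with that library and −0.05 without it, and 0 of 13 were called in either fit. MT-CO1, subunit 1 of cytochrome c oxidase, was at 11275, 11525 and 37997 CPM in Vector and 11299, 12249 and 10459 CPM in FTO. Its log2 change went from −0.84 to −0.031.

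Of 84 tested ribosomal protein genes 0 were called with all 9 libraries, and most of their log2 changes were above 0. They summed to 76378, 59722 and 42450 CPM in Vector and to 88476, 81799 and 97654 CPM in FTO. The Vector sums spanned a wider range than the distance between the group means, with replicate 3 the lowest, though no Vector sum reached an FTO sum. The median log2 change was 0.56, beside 0 for all tested genes, and 82 of 84 were positive. At an unadjusted p below 0.05, 52 members were higher and 0 lower, beside 4.94% and 6.95% of all tested genes. The median moved to 0.36 without Vector replicate 3, where 7 were called higher (beside 1.15% of all tested genes), to 0.82 without Vector replicate 1 and to 0.55 without Vector replicate 2. With the 5 libraries of FTO and Vector replicates 1 and 2 alone, 45 were higher and 0 lower, beside 8.41% and 6.94% of all tested genes.

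The 7 ribosomal protein genes called higher without Vector replicate 3 were RPS3A, RPS4X, RPS6, RPL5, RPL6, RPL7 and RPL22. RPL7 was at 574, 553 and 428 CPM in Vector and 971, 912 and 1120 CPM in FTO, with a log2 difference of 0.95 (SE 0.21; edgeR adjusted p = 0.0709) and of 0.81 without Vector replicate 3 (adjusted p = 0.0271). RPL6 was at 860, 785 and 759 CPM in Vector and 1199, 1190 and 1316 CPM in FTO (log2 0.62, adjusted p = 0.0933; 0.56 and 0.0166 without that library). RPS4X, of the small subunit, was at 1025, 892 and 1047 CPM in Vector and 1385, 1341 and 1592 CPM in FTO, and here Vector replicate 3 was not low (log2 0.54, adjusted p = 0.177; 0.56 and 0.0194 without it). These genes have many processed pseudogenes, and how reads were shared between copies is not known.

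Initiation and elongation factors had a smaller shift. Of 64 tested, 0 were called, and the median log2 change was 0.15, or 0.12 without Vector replicate 3. In that fit 5 of 64 were higher (EEF1A1, EEF1B2, EIF3E, EIF3H and EIF3L), beside 1.15% of all tested genes. EEF1A2, the muscle and nerve form of the elongation factor, was lower there, beside 2.26% of all tested genes. EIF3E, a subunit of initiation factor 3, was at 96.8 and 104 CPM in Vector replicates 1 and 2, at 192 CPM in replicate 3 and at 173, 179 and 215 CPM in FTO. Vector replicate 3 lay among the FTO libraries, and the log2 difference was 0.53 with it and 0.89 without it (edgeR adjusted p = 0.435 and 0.00664). NPM1, a nucleolar chaperone of ribosome assembly, had the same layout, at 327 and 310 CPM in Vector replicates 1 and 2, 490 CPM in replicate 3 and 460, 469 and 528 CPM in FTO (log2 0.37 and 0.59; adjusted p = 0.471 and 0.0221). NACA, which guards nascent chains at the ribosome, was even across Vector at 222, 221 and 215 CPM and at 332, 318 and 358 CPM in FTO (log2 0.61 and 0.58; adjusted p = 0.123 and 0.0333). Of 49 tested ribosome biogenesis factors, NPM1 was the called member without Vector replicate 3, beside 3.41% of all tested genes. Their median was 0.1 with that library and 0.09 without it.

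The median of the nuclear genes of oxidative phosphorylation also depended on which Vector library was left out. The 82 tested genes summed to 9571, 7940 and 5474 CPM in Vector and 9972, 9265 and 10827 CPM in FTO, so Vector replicate 1 lay within the FTO range. None was called, and 20 were higher and 0 lower at an unadjusted p below 0.05, beside 4.94% and 6.95% of all tested genes. The median log2 change of 0.4 fell by over 1.5 times, to 0.19, without Vector replicate 3, and was 0.61 without Vector replicate 1. UQCRB and ATP5O were the 2 of 82 called higher without it, beside 1.15% of all tested genes. UQCRB, a subunit of complex III, was at 43.1, 38.3 and 102 CPM in Vector and 66.1, 65.4 and 78.3 CPM in FTO, so that Vector replicate 3 lay above all FTO libraries.

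Across the lists, the medians were small and many moved with this library. Of 68 lists with at least 5 tested members, 10 had a called member. Without Vector replicate 3 the median of 22 lists moved by over 0.1 on the log2 scale, and in 11 it changed sign. Proteasome subunits went from 0.23 to 0.05 (46 tested), tetraspanins from 0.12 to −0.1 (20 tested), and ephrins with their receptors from 0.22 to −0.06 (15 tested). Chromatin remodellers went from −0.22 to −0.09 (34 tested) and KLF and SP factors from −0.21 to −0.02 (18 tested). No member of these 5 lists was called with all 9 libraries. Spliceosomal snRNP and SF3 proteins stayed at 0.2 (32 tested, 0 called with all 9 libraries), and potassium channels were at −0.31 (24 tested, 0 called) and −0.34 (28 tested without that library, where KCNG1 was lower).

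**Figure D4:**
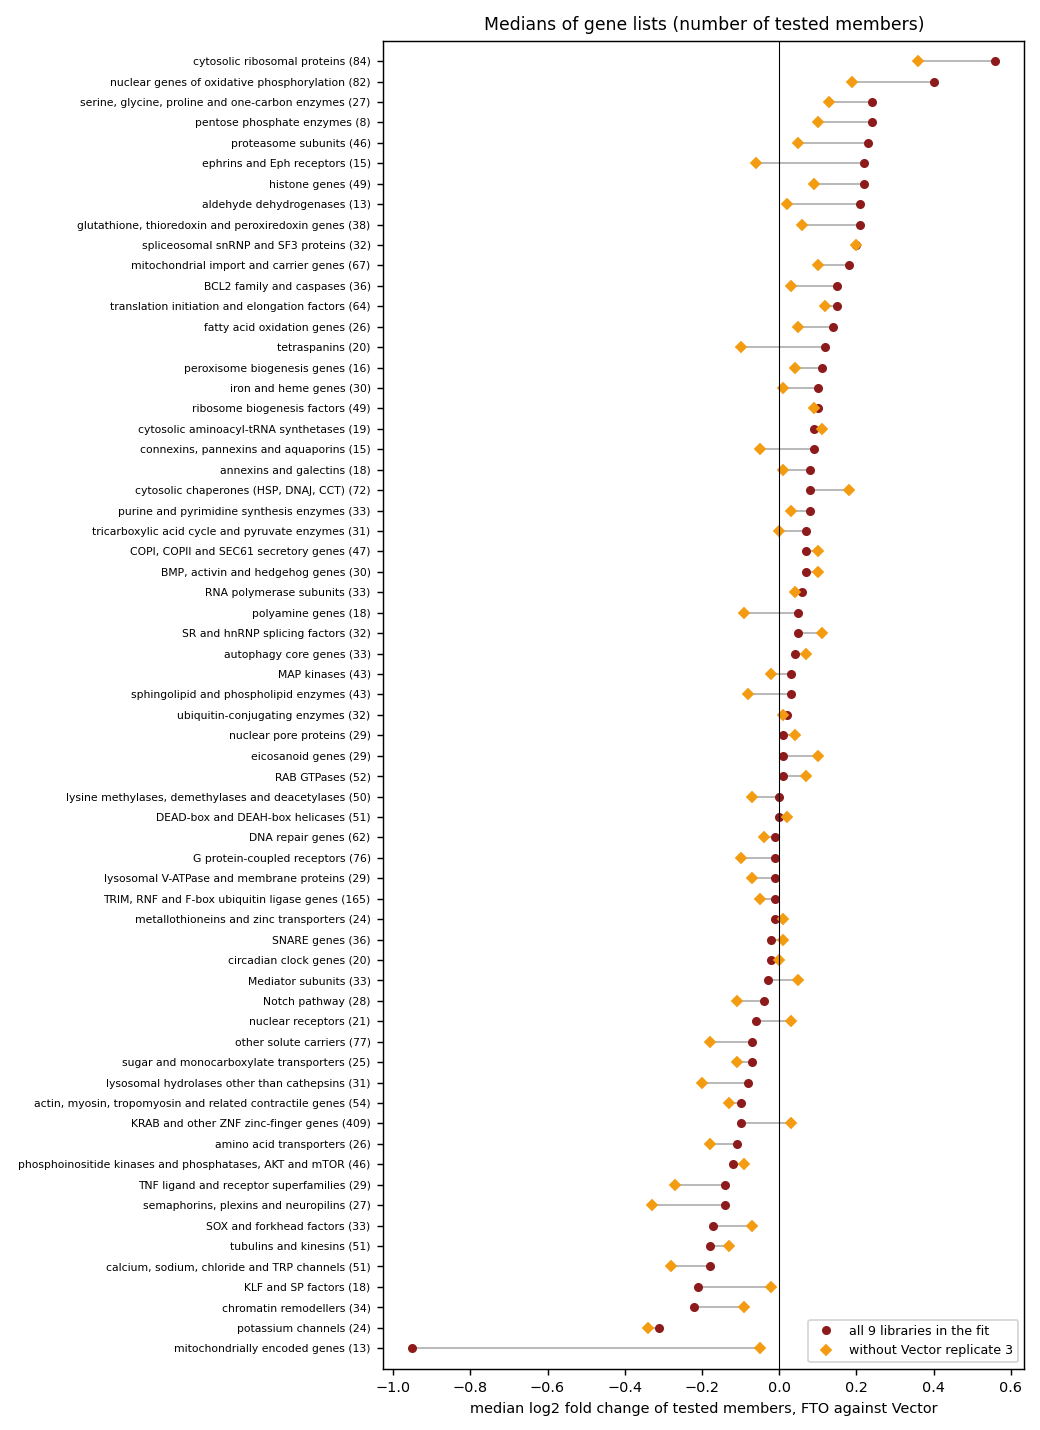
Median log2 fold change of the tested members (x axis) for 64 gene lists (rows, with the number tested), with all 9 libraries in the fit (circles) and without Vector replicate 3 (diamonds). Ribosomal proteins lead with medians of 0.56 and 0.36, and mitochondrially encoded genes move from −0.95 to −0.05.

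Several lists in the plot of list medians had members called only without Vector replicate 3, a fit in which 2.26% of all tested genes were lower and 1.15% higher. Of 25 tested transporters of sugars and monocarboxylates, 0 were called with all libraries, and 5 of 27 tested without it were lower: SLC2A3, SLC2A6, SLC16A3, SLC16A13 and SLC37A2. SLC16A3, which exports lactate, was at 192 and 186 CPM in Vector replicates 1 and 2, at 55.2 CPM in replicate 3 and at 121, 116 and 117 CPM in FTO. Vector replicate 3 was thus far below FTO and the other Vector libraries above it (log2 −0.29, adjusted p = 0.762; −0.70 and 0.00292 without it). SLC2A3, a glucose transporter, was even in Vector at 38.5, 41.5 and 42.2 CPM and at 20.6, 24 and 22.3 CPM in FTO. Its log2 difference was −0.87 in either fit, with an edgeR adjusted p of 0.0593 and 0.00716.

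Of 77 further solute carriers tested, 0 were called, and 12 were lower and 0 higher at an unadjusted p below 0.05, beside 6.95% and 4.94% of all tested genes. Without Vector replicate 3, 6 of 83 were lower and 0 higher, beside 2.26% and 1.15%. The list's median was −0.07, and −0.18 without that library. SLC12A7, a potassium chloride cotransporter, was at 30.7, 32.6 and 24.1 CPM in Vector and 15.2, 15 and 15.8 CPM in FTO (log2 −0.92, edgeR adjusted p = 0.0613; −1.07 and 0.00157 without Vector replicate 3). The groups did not overlap. SCNN1A, a subunit of the epithelial sodium channel, was at 53, 60.1 and 49.1 CPM in Vector and 29.9, 31.8 and 29.2 CPM in FTO, and was lower without that library (log2 −0.92). In that fit 2 of 53 calcium, sodium, chloride and TRP channels passed.

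Notch receptors and their partners had 0 of 28 tested members called, and 4 of 28 lower without Vector replicate 3, beside 2.26% of all tested genes: NOTCH1, NOTCH2, HES1 and PSEN2. NOTCH1 was at 36, 39.6 and 32.7 CPM in Vector and 22.5, 26 and 23.2 CPM in FTO (log2 −0.60, edgeR adjusted p = 0.273; −0.69 and 0.046 without that library). HES1, a repressor that Notch induces, was at 47.7 and 49.9 CPM in Vector replicates 1 and 2 but at 33.1 CPM in replicate 3, and at 32.4, 33.9 and 34.6 CPM in FTO. PSEN2, a catalytic subunit of the protease that releases the Notch intracellular domain, was at 21.1, 19.2 and 9.05 CPM in Vector and 8.56 to 9.81 CPM in FTO. For HES1 and PSEN2 Vector replicate 3 lay among the FTO libraries. The list's median was −0.04, and −0.11 without it.

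Of 76 G protein-coupled receptors tested, 0 were called, and 6 of 79 were lower and 1 higher without Vector replicate 3, beside 2.26% and 1.15% of all tested genes. FZD6, a Wnt receptor, was the higher one. Tubulins and kinesins had 4 lower of 52 tested in that fit, and TNF ligands and receptors 3 lower of 31. SR and hnRNP splicing factors (32 tested), MAP kinases (43) and DNA repair genes (62) had 0 called in either fit. So had cytosolic aminoacyl-tRNA synthetases (19) and chaperones (72), where 3.41% of all genes passed without Vector replicate 3. With the 5 libraries of FTO and Vector replicates 1 and 2 alone, 7 synthetases, 12 chaperones and 4 splicing factors were higher and 0 lower. There 2 MAP kinases were higher and 2 lower, and 8 DNA repair genes higher and 5 lower. Over all tested genes 8.41% were higher and 6.94% lower in that fit.

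The genes of at least 20 CPM that passed only without Vector replicate 3 with the lowest p show how this library stood between the groups. Among those higher in FTO, FABP5, the epidermal fatty acid-binding protein, was at 15.5 and 17.3 CPM in Vector replicates 1 and 2, 31.4 CPM in replicate 3 and 41.3, 41 and 48.8 CPM in FTO. Its log2 difference went from 1.03 (SE 0.24; edgeR adjusted p = 0.0847) to 1.39 (SE 0.15; adjusted p = 4.82e-05) without replicate 3. STEAP4, a metalloreductase, was at 21.6, 31.4 and 46.9 CPM in Vector and 68.6, 58.1 and 69.7 CPM in FTO (adjusted p = 0.113 and 0.000437). In both genes Vector replicate 3 was the Vector library nearest to FTO, without reaching it.

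CAV1, the main coat protein of caveolae, was at 133, 133 and 178 CPM in Vector and 264, 239 and 265 CPM in FTO (log2 0.79, edgeR adjusted p = 0.105; 0.92 and 0.00412 without Vector replicate 3). ASNS, asparagine synthetase, was at 75.3, 69.7 and 91.5 CPM in Vector and 130, 139 and 118 CPM in FTO (log2 0.71 and 0.80; adjusted p = 0.0653 and 0.00166). For these as well the groups were apart with all 6 libraries. GCLC, the catalytic subunit of the first enzyme of glutathione synthesis, was at 14.5 and 16.2 CPM in Vector replicates 1 and 2, 27.8 CPM in replicate 3 and 27.8, 32.5 and 27.5 CPM in FTO. CLEC2B, a C-type lectin, was at 22 and 23.5 CPM, 73.3 CPM in replicate 3, and 45.5, 46.9 and 55.2 CPM in FTO. Vector replicate 3 thus matched FTO for GCLC and lay above it for CLEC2B, whose log2 difference was 0.31 with it and 1.09 without it.

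Among those lower in FTO, PLAT, tissue plasminogen activator, was at 231, 346 and 228 CPM in Vector and 135, 148 and 160 CPM in FTO (log2 −0.86, edgeR adjusted p = 0.0613; −0.99 and 0.00135 without Vector replicate 3). LGALS3BP, a secreted glycoprotein that binds galectins, was at 495, 504 and 382 CPM in Vector and 268, 308 and 265 CPM in FTO (adjusted p = 0.106 and 0.00152). Neither gene overlapped between groups. ADAM8, a membrane metalloprotease, was at 269 and 268 CPM in Vector replicates 1 and 2, 137 CPM in replicate 3 and 161, 168 and 143 CPM in FTO (log2 −0.51 and −0.79; adjusted p = 0.403 and 0.000822). SLC2A6, a hexose transporter, was at 86.4, 81.8 and 33.3 CPM in Vector and 47.6, 47.6 and 41.1 CPM in FTO, and SNX8, a sorting nexin, at 49.5, 51.3 and 22.6 CPM in Vector and 26.7, 28.5 and 28.9 CPM in FTO. For ADAM8, SLC2A6 and SNX8 Vector replicate 3 lay below every FTO library, so the sign of these falls rests on Vector replicates 1 and 2. The part of the high mitochondrial share in these differences of Vector replicate 3 was not tested.

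**Figure D5:**
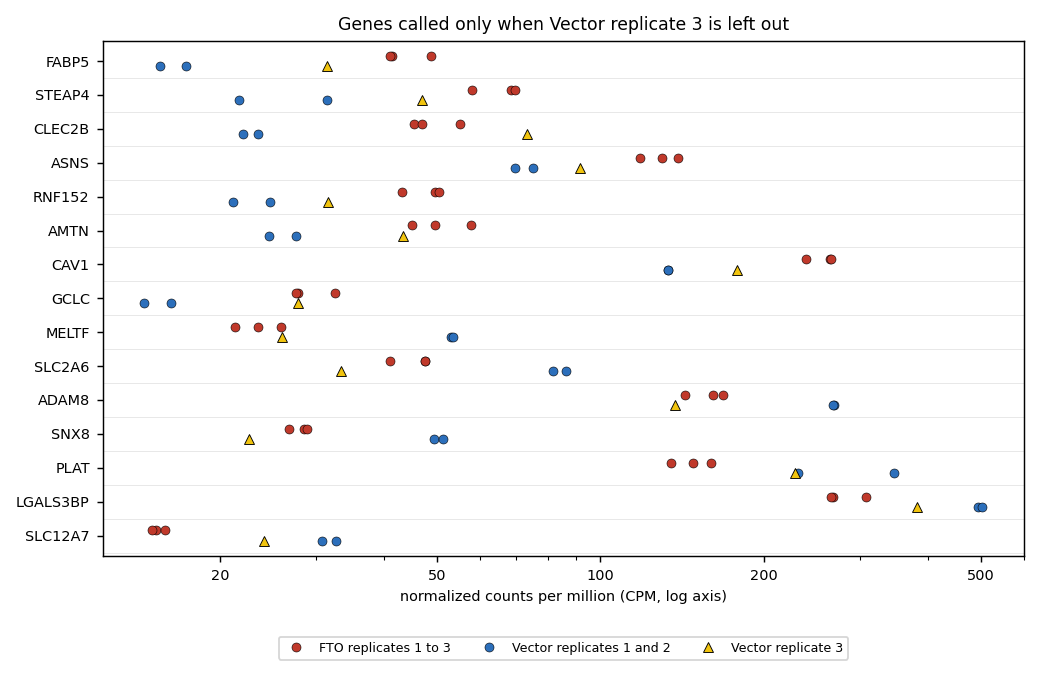
CPM (x axis, log scale) of 15 genes that passed only without Vector replicate 3, 8 higher and 7 lower in FTO; each point is a library. The triangle of Vector replicate 3 lies between Vector replicates 1 and 2 and FTO for FABP5 and SLC12A7 and beyond the FTO points for CLEC2B, SLC2A6, ADAM8 and SNX8.

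The 15 genes drawn in that last plot, and the further abundant genes named next, were selected by their p in the fit without Vector replicate 3, so their separation is a description. Among genes of at least 100 CPM, that fit had BNIP3, BNIP3L, FAM162A and ADM higher. ADM, encoding the vasodilator adrenomedullin, was at 400, 356 and 206 CPM in Vector and 544, 568 and 484 CPM in FTO, and BNIP3L, a mitophagy receptor, was at 108, 120 and 211 CPM in Vector and 168, 172 and 176 CPM in FTO. Vector replicate 3 was the lowest library for ADM and the highest for BNIP3L, and their adjusted p was 0.203 and 0.705 with it and 0.0443 and 0.0158 without it. Among the lower ones, CTSL, the cysteine protease cathepsin L, was at 240, 239 and 269 CPM in Vector and 147, 164 and 173 CPM in FTO (log2 −0.63, edgeR adjusted p = 0.0671; −0.59 and 0.00764 without that library), and FURIN, a proprotein convertase, was at 447, 462 and 294 CPM in Vector and 291, 301 and 264 CPM in FTO (log2 −0.49 and −0.70; adjusted p = 0.319 and 0.00292). CTSL separated the groups in all 6 libraries, while FURIN in Vector replicate 3 lay among the FTO libraries. CD276, an immune checkpoint ligand, was at 487, 464 and 487 CPM in Vector and 313, 327 and 280 CPM in FTO, with an even Vector group and a log2 difference of −0.64 (adjusted p = 0.126, and 0.0158 without that library).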

How the data were processed

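Poly(A) RNA of 9 HaCaT libraries was measured, and the 3 FTO and 3 Vector libraries were compared. The values deposited by the authors are raw counts of each gene, as whole numbers. Per the submitters' processing notes, StringTie and HISAT2 were used, and mm10 is the build. That is a mouse build, while cells and symbols are human. What annotation, counting program and strand setting served is not given in the sources used here. Because of the build named, coordinates are given only for RefSeq promoters (GRCh38.p14). All 9 count columns were used.

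R 4.3.3 with edgeR 4.0.16 was used for the main test. Genes passed filterByExpr (minimum count 10, minimum total 15), were scaled by TMM, and were fitted by robust quasi-likelihood with a term per group over all 9 libraries. P-values were adjusted by the Benjamini-Hochberg method over all tested genes and called below 0.05. Each SE is the size of the log2 change divided by the root of F. CPM uses the TMM-scaled library sizes. A group without counts was set at 3 counts in total, which covers counting error only. The script was tested on simulated counts.

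The members and the 71 gene lists were chosen with earlier results of these data known. Of 816 listed symbols 801 matched, 18 of them by an older symbol. Genes are named by rule. The rule took the 12 of highest CPM, called genes of at least 50 CPM by p, and the 10 largest rises and falls of at least 1 CPM without overlap. It also took the 8 per direction of at least 20 CPM called only without Vector replicate 3 and the leading members of each list, of which those called in that fit are printed. Keratinocyte, interferon and matrix genes and a few genes excluded by name (among them MYO1G, NFATC1, FABP4 and CCDC69) were left out of the rule. ADM, ATP10B, BNIP3, BNIP3L, BST2, C3, CALB1, CCND1, CCND2, CD276, CHI3L2, CKB, CTSL, CXCL8, CXCL9, FAM162A, FURIN, IFI27, IL24, KRT13, MT-ND4L, NACA, NHLH2, OAS3, SERPINA3-1, SPRR2A, WFDC5, the further list members called only without Vector replicate 3, and the genes and loci of the closing section stand outside the rule and were chosen after their values were seen. A few results are not reported here. Genes with near-identical copies and overlapping genes are uncertain.

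Alternatives were RLE factors, library size alone, DESeq2 1.42.0, voom of limma 3.58.1, other filters, 6 libraries, the replicate block and each library left out. Chosen after seeing the data were a fit that left out both Vector replicate 3 and mut-FTO replicate 2, and the 5-library fit.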

Additional observations from a re-analysis of the deposited data

How the results depend on the processing

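The count of called genes depended on the libraries more than on the scaling. Leaving out 1 library gave 27 to 476 called genes (17 to 161 higher, 10 to 315 lower), with 95, 50 and 476 when Vector replicate 1, 2 or 3 was absent, and 32, 32 and 27 when FTO replicate 1, 2 or 3 was. Without mut-FTO replicate 3 it was 59. The 6 libraries alone gave 41 (18 higher, 23 lower) and DESeq2 364 (127 and 237). Of the alternatives chosen after seeing the data, leaving out Vector replicate 3 and mut-FTO replicate 2 gave 1050 (467 and 583), and the 5 libraries gave 2095 (1148 and 947). RLE factors, library size alone, voom, other filters and leaving out mitochondrially encoded genes stayed within 1.5 times. In the 5-library fit 4 genes of the lists that had a negative log2 change passed in the other direction: HNRNPH3 at 0.39, SMARCA5 at 0.61, SEC63 at 0.48 and XRCC4 at 0.87. SMARCA5 at 0.59 and XRCC4 at 0.85 also did so without Vector replicate 3 and mut-FTO replicate 2. With 1 library left out, SMARCA5 ranged from −0.27 to 0.59 and XRCC4 from −0.30 to 0.84, the lowest without Vector replicate 1. The cause was not tested. With the replicate number as a block 67 genes were called (32 higher, 35 lower). Deviations of same-numbered Vector and FTO libraries from their group means correlated at 0.11, 0.01 and 0.06. These values cannot decide whether same-numbered libraries shared a batch, because Vector replicate 3 weighs on the deviations of its whole group. Not every library correlated best with its own number. With 3 libraries a group, differences of under 2-fold were often within the spread.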

Other observations

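Further called genes fell in FTO, and 7 of them, chosen after their values were seen, are given here. SAMHD1, which depletes nucleotides and restricts viruses, was at 22.4, 24.7 and 27 CPM in Vector and 13.8, 13.5 and 13.4 CPM in FTO (1.82-fold; edgeR adjusted p = 0.0391). NLRP1, an inflammasome sensor of keratinocytes, was at 12.4, 13.8 and 12.3 CPM in Vector and 6.93, 6.6 and 6.15 CPM in FTO (1.96-fold; adjusted p = 0.0443). The groups did not overlap for either gene, and the folds without Vector replicate 3 were 1.76 and 2.03. SIRPA, a receptor for the signal CD47, fell 2.74-fold to 5.14 CPM (adjusted p = 0.0236). UNC13D, which primes vesicles for release, was at 27.1, 28.1 and 14.1 CPM in Vector and 10.1, 11 and 8.58 CPM in FTO, and its fall went from 2.33-fold to 2.83-fold without Vector replicate 3 (adjusted p = 0.0474 and 4.82e-05). DYSF, a membrane repair protein, fell 2.08-fold, the actin nucleator COBL 2.41-fold and the endocytic adaptor HIP1 2.07-fold (edgeR adjusted p = 0.0381, 0.0121 and 0.0166). Without Vector replicate 3 the falls were 2.25-fold, 2.31-fold and 2.05-fold, and that of SIRPA was 2.56-fold. UNC13D kept its call only without Vector replicate 3, as did NLRP1 (adjusted p = 0.0797 to 0.259 and 0.0556 to 0.228 in the others). The rest lost theirs without any FTO library and without Vector replicate 2, at adjusted p = 0.0513 to 0.115 for COBL and 0.052 to 0.123 for HIP1. DYSF lost it also without Vector replicate 1 or mut-FTO replicate 2 or 3 (0.0584 to 0.246), SAMHD1 without mut-FTO replicate 2 or 3 (0.055 to 0.231) and SIRPA without mut-FTO replicate 3 (0.0552 to 0.172).

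Among assembled loci without a gene name, MSTRG.3993 had 244 counts in the Vector group and 0 in FTO, at least 86.8-fold lower, and MSTRG.4406 had 2 counts in Vector and 248 in FTO.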
